A study of Saccharomyces cerevisiae with 3 samples.

Results

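The genes described here encode the protein components of the yeast ribosome. They were taken as the genes on the study's list of ribosomal protein (RP) genes that have exactly 1 transcription start site (TSS) and polyadenylation site (pAS) in the part of its site list used here. This rule gave 57 of the 134 listed RP genes, among 1971 genes with 1 such entry. By symbol, 18 encode proteins of the small ribosomal subunit, 36 proteins of the large subunit, and 2 (*RPP1B* and *RPP2A*) the acidic proteins of the ribosomal stalk, which contacts translation factors. The remaining gene, *RPP1*, is on the study's list but encodes a protein subunit of RNase P and RNase MRP, enzymes that process tRNA and rRNA precursors, and is not a ribosomal protein.

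The data were 3 libraries of DNA fragments of mononucleosome size made with micrococcal nuclease (MNase), which cuts linker DNA and leaves DNA wrapped on nucleosomes. The naked DNA library came from the wild type *Saccharomyces cerevisiae* strain BY4741, with protein removed from cross-linked cells before digestion, so that it records only where the enzyme cuts the sequence itself. The other 2 libraries, replicates 1 and 2, came from cross-linked chromatin of *dst1∆*, a BY4741 derivative lacking TFIIS, an elongation factor that helps stalled RNA polymerase II resume by cleaving its transcript. Both strains grew exponentially in rich glucose medium (YPD), and chromatin of the wild type was not analysed here. No value below measures the effect of the deletion, and naked DNA and chromatin differ in genotype as well. Reads are placed in sacCer2, and TSS and pAS coordinates are printed as the site list holds them. How the cultures of the replicates relate is not given in the sources used here.

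RP genes are among the most heavily transcribed genes of growing yeast. Most carry binding sites for Rap1, a general regulatory factor, upstream of the TSS, and Rap1 recruits Fhl1 with its co-activator Ifh1, often together with the HMG-box protein Hmo1. The upstream region is depleted of stable nucleosomes, and the nucleosomes it does hold are easily lost to MNase and are called fragile. The nucleosomes downstream of the TSS are numbered +1, +2 and on into the gene body.

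The naked DNA library held 16618987 reads, and *dst1∆* replicates 1 and 2 held 10776646 and 9049024. Replicate 2 stood apart by design, because it was sequenced in another run, on another instrument, with 50-nucleotide reads in place of 36-nucleotide reads, as the paper states. Its deposited reads most often spanned 46 bp, against 36 bp in naked DNA and replicate 1, and the reason is not given. In the paper's protocol the MNase digestion to be sequenced was chosen from several enzyme amounts. Biological, digestion and sequencing differences between the replicates cannot be told apart. The share of reads at distinct strand positions was 21.5% in naked DNA, 31.8% in replicate 1 and 29.3% in replicate 2. The longest stretch without any *dst1∆* read, 531 bp on chromosome VII (417880 to 418410, sacCer2), held 631 naked DNA reads. *DST1* lies on that chromosome but is not among the site entries used here, so the stretch was not assigned to a gene. Signals below are fragments per position scaled to a genome mean of 100 in each library, and 100 over the window from 250 to 50 bp upstream stands for about 181, 127 and 109 fragments in naked DNA, replicate 1 and replicate 2. Counting intervals (95%, exact Poisson) cover counting error only. With 1 naked DNA library against 2 *dst1∆* libraries an exact permutation test cannot go below p = 0.333, so no test was run, and a 2-fold difference in both replicates is a description. Every 2-fold call below is made on signals with a pseudocount of 10 added, which keeps low windows from being called.

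The study's lists of bound factors and promoter classes set the frame for the RP genes. In the list of Rap1-bound promoters, 56 of the 57 were present (21.1% of all genes), and *RPP1* was the exception. The split by Rap1 binding therefore set 56 genes against a single gene and gave no comparison of groups. The Abf1-bound list held 16 of the genes (21.6% of all genes), and the Reb1-bound list held 2, *RPL18B* and *RPL40A* (4.97%). The class of promoters with a fragile −1 nucleosome held 51 (36.1%), whereas the stable class held *RPL18B*, *RPL1A* and *RPP1* (36.7%) and the asymmetric class held *RPS22A* (2.99%). The list of highly transcribed genes held 4, *RPL18B*, *RPL22A*, *RPP1B* and *RPP2A* (6.75%). That list was meant to leave out RP genes, so their share of it says nothing of how strongly they are transcribed. The genes lay on 15 of the 16 nuclear chromosomes, and their median length from TSS to pAS was 968 bp (344 to 1680 bp), against 1544 bp for all genes.

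Upstream of the RP genes, the signal was highest in naked DNA, that is, over DNA that resisted MNase with no protein on it. Between 250 and 50 bp upstream of the TSS, where Rap1 sites usually lie, naked DNA had a median signal of 321 over the 57 genes (5.4 to 675), against 40.7 over all genes. Replicate 1 had a median of 82.2 (1.64 to 815) and replicate 2 one of 9.26 (0 to 245), against 49.5 and 53.9 over all genes. The RP genes were thus high in naked DNA, intermediate in replicate 1 and low in replicate 2, whereas the medians of all genes were close to each other in the 3 libraries.

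The genes fell into 2 sets by level in naked DNA. The signal was at least 200 in 31 genes (16.9% of all genes) and at most 50 in 22 (56.2%), and no RP gene lay between 137 (*RPL35B*) and 299.6 (*RPS15*). Both subunits contributed to the high group, with 11 of 18 small subunit genes, 19 of 36 large subunit genes and *RPP2A*. Of the Abf1-bound genes, 8 of 16 were in it, against 23 of the other 41. In the high group the medians were 419 in naked DNA, 331 in replicate 1 and 30.7 in replicate 2. In the other 26 genes they were 27.4, 12.8 and 1.72, so the order of the libraries was the same in both groups. With 1 read counted per strand position 12 genes were at most 50, and with each library scaled to its genome median 8 were.

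**Figure D1:**
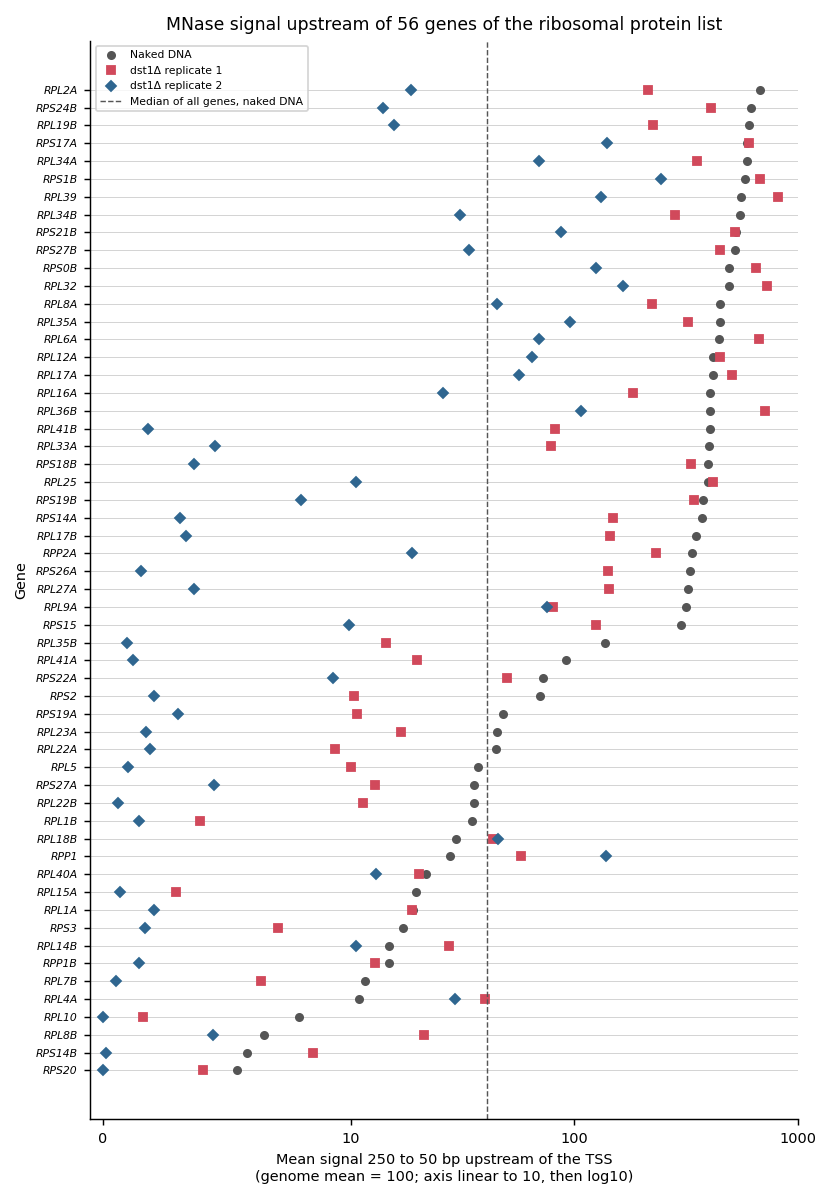
Mean signal (genome mean 100, axis linear to 10 and logarithmic above) between 250 and 50 bp upstream of the TSS for 56 of the genes, ordered by naked DNA, with 1 point per library and a dashed line at the naked DNA median of all genes. The 31 genes at or above 200 in naked DNA are followed by a gap down to 137, and replicate 2 lies below replicate 1 in 54 of the 56 genes drawn.

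Among small subunit genes, *RPS24B* had the highest naked DNA signal, 614, against 409 in replicate 1 and 13.9 in replicate 2. *RPS17A* had 593 in naked DNA (558 to 629), 606 in replicate 1 (564 to 650) and 139 in replicate 2 (118 to 163). *RPS1B*, whose protein sits near the exit of the mRNA channel, had 583, 676 and 245, and 245 was the highest value of replicate 2 in any RP gene. In *RPS17A* and *RPS1B* replicate 1 was thus as high as naked DNA or higher, and replicate 2 was below both. *RPS0B* (493, 652 and 125) and *RPS21B* (528, 521 and 86.9) followed the same order. *RPS27B*, on the other hand, had 525, 447 and 33.6, with replicate 1 below naked DNA by less than 2-fold.

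In the rest of the high small subunit genes, replicate 2 was close to empty. *RPS18B* (chromosome XIII, TSS 223901, pAS 222717, Crick strand), a protein of the head of the small subunit, had 397 in naked DNA (369 to 426), 331 in replicate 1 (300.1 to 364) and 3.65 in replicate 2, with 754, 427 and 4 fragments. *RPS19B*, another head protein, had 376, 341 and 7.97, and *RPS14A*, of the platform of the small subunit, had 374, 149 and 3.09. *RPS26A*, which lies at the mRNA exit, had 328, 141 and 1.53. Nearly all the fragments that replicate 1 kept in these windows were missing from replicate 2. *RPS15* was the lowest of the high group, at 299.6, 125 and 9.93.

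Of the large subunit genes, *RPL2A* had the highest naked DNA signal of all 57 (chromosome VI, TSS 221461, pAS 220365, Crick strand). Its protein lies close to the peptidyl transferase centre. The signal was 675 in naked DNA (639 to 714), 214 in replicate 1 (190 to 240.0) and 18.5 in replicate 2 (11.1 to 28.9), so each library was more than 2-fold apart from the next. *RPL19B* was alike, with 604, 224 and 15.6, and *RPL34A* had 591, 353 and 69.2. *RPL39*, which encodes a very small protein of the polypeptide exit tunnel, had instead the highest value of replicate 1, with 558 in naked DNA (524 to 593), 815 in replicate 1 (767 to 865) and 132 in replicate 2 (112 to 155).

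Replicate 1 exceeded naked DNA in several further large subunit genes. *RPL32*, whose protein regulates the splicing of its own transcript, had 492, 724 and 165, *RPL36B* had 405, 713 and 107, and *RPL17A*, of the exit tunnel, had 418, 508 and 56.5. *RPL12A*, of the stalk base, had 419, 447 and 64.8, and *RPL25*, of the exit tunnel rim, had 396, 415 and 10.6. In these genes the naked DNA and replicate 1 were less than 2-fold apart, and replicate 2 was over 2-fold below either of them. In contrast, *RPL41B* (404, 82.2 and 1.83), *RPL16A* (406, 183 and 25.7), *RPL17B* (349, 144 and 3.36) and *RPL27A* (321, 143 and 3.65) were over 2-fold lower in replicate 1 than in naked DNA. *RPP2A*, of the stalk, had 337, 232 and 18.8. The other high large subunit genes, *RPL6A*, *RPL8A*, *RPL33A*, *RPL34B* and *RPL35A*, had from 400.3 to 552 in naked DNA, and in each of them replicate 2 was the lowest library.

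*RPL9A* (chromosome VII, TSS 228383, pAS 227639, Crick strand) was the exception of the high group. It had 315 in naked DNA (290.4 to 342), 80.4 in replicate 1 (65.7 to 97.6) and 75.4 in replicate 2 (58.4 to 95.7). The intervals of its replicates overlapped, and both lay over 2-fold under naked DNA.

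Most of the 26 genes under 200 in naked DNA had low signals in all 3 libraries. *RPS20* (chromosome VIII, TSS 75370, pAS 76066, Watson strand) had the lowest naked DNA signal, 5.4 from 10 fragments, with 4.05 in replicate 1 and no signal in replicate 2. *RPS14B* (5.8, 8.45 and 0.11), *RPL8B* (6.48, 21.3 and 4.44), *RPL10* (7.91, 1.64 and 0) and *RPL4A* (10.9, 39.8 and 29.3) were also near the bottom in naked DNA. *RPL10* shared with *RPS20* a signal of 0 in replicate 2, and a count of 0 there allows a signal of up to 2.74 (3 fragments). At these depths the libraries could not be ordered for the lowest genes. The upper edge of the group was made of *RPL35B* (137, 14.3 and 0.96), *RPL41A* (91.4, 19.7 and 1.21), *RPS22A* (72.1, 49.8 and 9.26) and *RPS2* (70.2, 10.4 and 2.06). A further 13 genes had 11.5 to 48.0 in naked DNA, 2.93 to 27.6 in replicate 1 and 0.54 to 13.0 in replicate 2.

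*RPP1*, the gene for the RNase P subunit (chromosome VIII, TSS 223821, pAS 222797, Crick strand), had the opposite order of libraries. Its signal was 27.7 in naked DNA (21.0 to 35.9), 57.9 in replicate 1 (45.2 to 73) and 138 in replicate 2 (117 to 162), and the 3 intervals did not overlap. *RPL18B* was the only other gene in which replicate 2 was not below replicate 1, with 29.6 (22.1 to 38.8), 43 (32.1 to 56.4) and 45.6 (35.0 to 58.3). Both are in the study's class of stable −1 nucleosomes, whereas the remaining gene of that class, *RPL1A*, had 18.8, 18.7 and 2.06.

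The replicates were then set against each other directly, on the log2 ratio of the signals with a pseudocount of 10. Replicate 1 was above replicate 2 in 55 of 57 genes (48% of all genes), and at least 2-fold above it in 38 (16.1%). The reverse 2-fold difference was met by 1 gene, *RPP1* (14.9%). The median log2 ratio of replicate 1 to replicate 2 was 1.65 over the RP genes, 2.84 in the high group and 0.73 in the rest, against −0.04 over all genes. The ratio was largest for *RPS18B* (4.64), *RPL25* (4.37), *RPS19B* (4.29), *RPS24B* (4.13) and *RPS26A* (3.71), and smallest for *RPP1* (−1.13), *RPL18B* (−0.07), *RPL9A* (0.08), *RPL10* (0.22) and *RPL15A* (0.27). The small ratios of *RPL10* and *RPL15A* depend on the pseudocount. With a pseudocount of 1 both were called at least 2-fold higher in replicate 1. The genes of the small and of the large subunit had this difference at like shares, 12 of 18 and 25 of 36.

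By naked DNA level, this 2-fold difference was found in 30 of the 31 genes at or above 200 and in 8 of the 26 below it, and in 120 of the 303 other genes on the site list that were at or above 200 (39.6%). The pseudocount holds back the low genes, and with a pseudocount of 1 the counts were 30 of 31, 21 of 26 and 127 of 303, and 51 of all 57 against 23.8% of all genes. Spearman's rho between naked DNA and the log2 ratio across the 57 genes was 0.70 with a pseudocount of 10 and 0.40 with 1. Its size thus depends on that choice, and across all genes it was 0.33 and 0.30. Within the high group it was −0.31 and −0.44, and within the other 26 genes 0.34 and 0.16. The ratio therefore did not rise with naked DNA inside the high group. Naked DNA correlated with replicate 1 (rho 0.85) more closely than with replicate 2 (0.68), and the replicates correlated with each other (0.84). Across all genes these values were 0.60, 0.24 and 0.59, with naked DNA again closer to replicate 1. The 3 measures share the same base composition at each gene, and genes are not independent replicates. Whether the sequencing run or the degree of MNase digestion had a part in the difference between replicates was not tested.

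**Figure D2:**
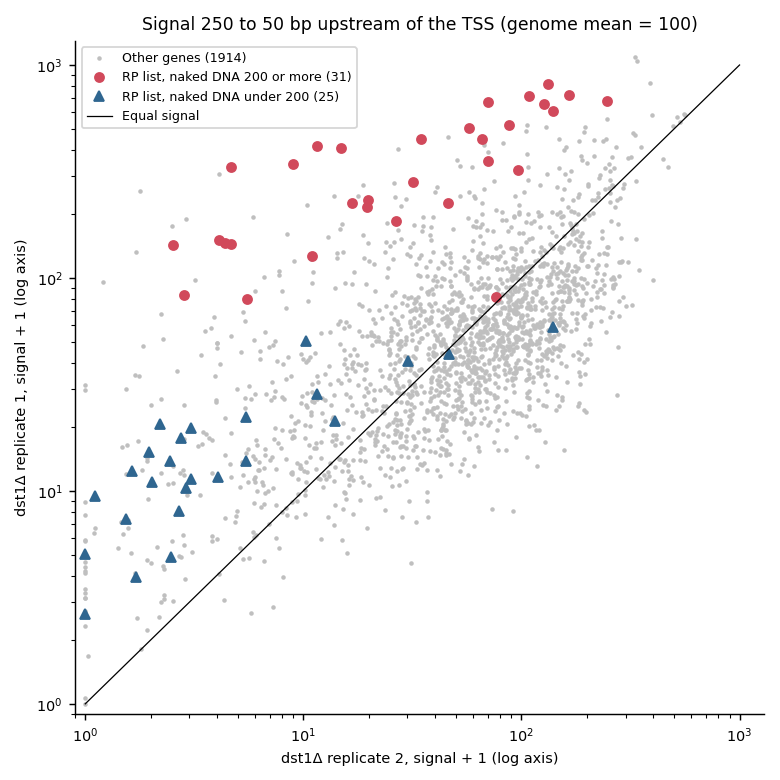
Signal plus 1 of *dst1∆* replicate 2 (horizontal) and replicate 1 (vertical) between 250 and 50 bp upstream of the TSS (genome mean 100, log axes), with 1 point per gene for the 31 RP genes with at least 200 in naked DNA, 25 others and the 1914 other genes. The RP genes lie above the line of equal signal except for *RPP1* and *RPL18B*, and *RPL9A* is close to it.

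Against naked DNA, both replicates were at least 2-fold lower in 22 of the 57 genes (15.6% of all genes), and in none were both at least 2-fold higher (14.7%). By naked DNA level, both were lower in 11 of the 31 genes at or above 200 (35.5%) and in 11 of the other 26. Among the 303 other genes at or above 200 it was 129 (42.6%), so at that level the share of the RP genes was not the larger. With a pseudocount of 1 both were lower in 25 genes (18.4%) and both higher in 2, *RPL4A* and *RPP1* (21.9%). With the pseudocount of 10 the replicates contributed unequally, since replicate 1 alone was at least 2-fold lower in 22 genes (19.5%) and replicate 2 in 48 (27.7%). The count of 22 therefore rests on replicate 1. Scaling each library to its genome median in place of its mean shifted the medians of all genes by 1.60, 0.72 and 0.76 on the log2 scale in naked DNA, replicate 1 and replicate 2, and gave 36 genes.

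The extent of the resistant DNA was then measured. The stretch around the highest point of naked DNA in which its signal stayed at or above 200 was measured from 500 bp upstream to 200 bp downstream of the TSS, a measure chosen after the profiles were seen. Of the 57 genes, 43 had one (68.2% of all genes). The centre lay between 250 and 50 bp upstream in 30 genes (13.3%), farther upstream in 8 (33.3%) and closer to or past the TSS in 5 (21.6%). The median width was 168 bp, against 116 bp over all genes, and the longest, that of *RPL2A*, was 304 bp (354 to 51 bp upstream). The shortest was that of *RPL41A*, 14 bp.

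Over their stretches the 43 genes had a median signal of 508 in naked DNA, 283 in replicate 1 and 44.6 in replicate 2, against 466, 211 and 124 over all genes with a stretch. Replicate 1 was at least 2-fold above replicate 2 in 37 of 43 (35.5%). Both replicates were at least 2-fold below naked DNA in 17 (45.9%), which is near the share of all genes. The highest point belonged to *RPS1B*, at 1188 within a stretch from 232 to 74 bp upstream, where the mean signals were 708, 828 and 296. In *RPL25* the stretch ran from 325 to 104 bp upstream, with 484, 511 and 9.63, and in *RPS18B* from 225 to 52 bp upstream, with 431, 365 and 4.22. In both, replicate 1 was within 2-fold of naked DNA and replicate 2 was far below it.

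The stretch covered the TSS in 4 genes, in *RPL36B* only by its last 26 bp. It ran from 172 bp upstream to 84 bp downstream in *RPS19B* (528, 327 and 7.02), and from 119 bp upstream to 40 bp downstream in *RPP2A* (524, 105 and 1.69). In *RPL40A*, which encodes ubiquitin fused to a large subunit protein, it ran from 50 bp upstream to 193 bp downstream (504, 92.4 and 2.30). In these genes the DNA that resisted MNase reached into the window where +1 is found in other genes. *RPL4A* and *RPS2* had theirs inside the gene, from 62 to 151 bp and from 148 bp to the end of the window at 200 bp downstream.

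**Figure D3:**
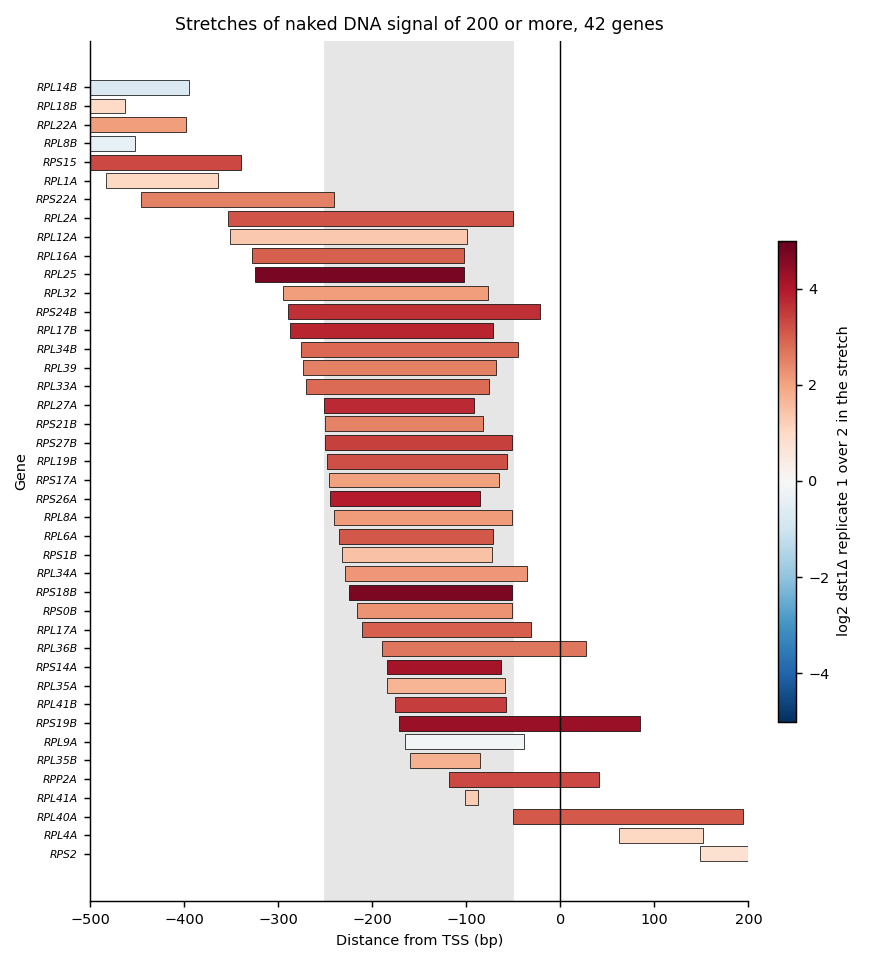
Extent of the stretch of naked DNA signal at or above 200 relative to the TSS (horizontal axis, bp) in 42 RP genes that have one, 1 bar per gene, coloured by the log2 ratio of *dst1∆* replicate 1 to replicate 2 over it, with the window from 250 to 50 bp upstream shaded. In 30 genes its centre lies between 250 and 50 bp upstream, and in *RPL40A*, *RPP2A* and *RPS19B* it spans the TSS.

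The shape of the promoter profile gave the same order of libraries. Over the 500 positions upstream of the TSS, the median Pearson correlation between naked DNA and replicate 1 was 0.89 over the RP genes (0.48 over all genes), and between naked DNA and replicate 2 it was 0.22 (0.16). Between the replicates it was 0.82, the same as over all genes. It was lower, 0.44, in the 31 high genes than in the other 26, 0.93. The highest promoter point of replicate 1 lay within 20 bp of that of naked DNA in 31 genes (30.4%), and that of replicate 2 in 13 (15.5%). In *RPS19B* the promoter profiles of the replicates were opposed, with a correlation of −0.58, against 0.98 in *RPS1B*.

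**Figure D4:**
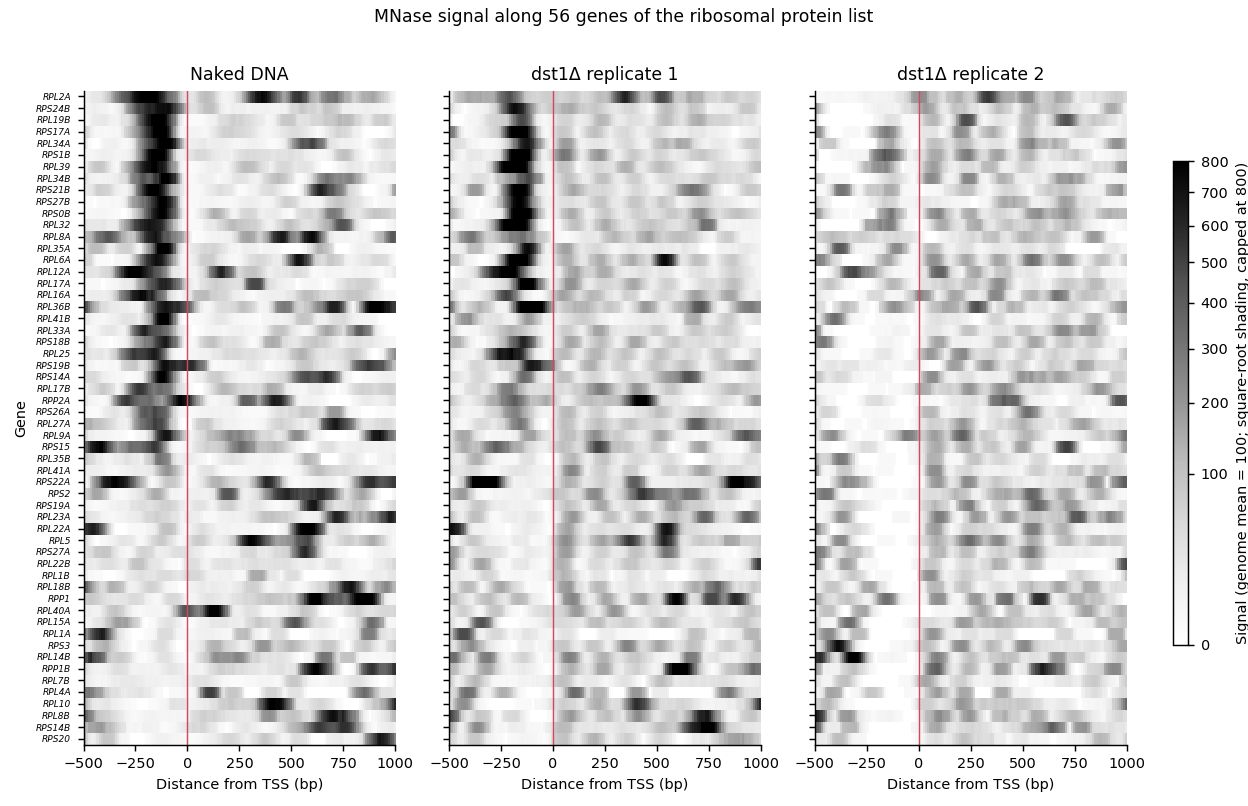
Signal from 500 bp upstream to 1000 bp downstream of the TSS in naked DNA, *dst1∆* replicate 1 and *dst1∆* replicate 2, with 1 row per gene for 56 RP genes, ordered by naked DNA upstream, and square-root grey shading common to the panels (genome mean 100, capped at 800). The upstream band of naked DNA is present in replicate 1 and faint in replicate 2, whose median upstream signal is 9.26.

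After subtraction of naked DNA, 51 of the 57 genes had a promoter nucleosome called in at least 1 replicate. No nucleosome was called in the 500 bp upstream of 6 genes in either replicate (2.23% of all genes), namely *RPL16A*, *RPL17B*, *RPL19B*, *RPL33A*, *RPL8A* and *RPS20*. The count was 7 in replicate 1 (4.41%) and 19 in replicate 2 (7.71%). Except for *RPS20*, the 6 genes were in the high naked DNA group, of which they made 5 of 31 (16.1%). Of the 303 other genes at or above 200 in naked DNA, 8 had no call in either replicate (2.64%). Whether the subtraction had a part was not tested.

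Divergent neighbours shared a promoter in 2 cases. *RPS15* and *RPP2A* (chromosome XV, TSSs at 253638 and 254098) start 460 bp apart on opposite strands, and share a 160 bp stretch with 524, 105 and 1.69. It lay from 119 bp upstream to 40 bp downstream of *RPP2A* and from 500 to 341 bp upstream of *RPS15*, outside the window that gave *RPS15* its 299.6. *RPS22A* and *RPL39* (chromosome X, TSSs at 75381 and 75897) start 516 bp apart and shared a 205 bp stretch with 565, 850 and 141. It lay from 274 to 70 bp upstream of *RPL39* and from 446 to 242 bp upstream of *RPS22A*, so the low value of *RPS22A* between 250 and 50 bp upstream (72.1) came from a window that missed it. These 4 genes are not independent in the counts above. Of the 57 genes, 24 had no neighbouring TSS or pAS on the list in the 500 bp upstream (30.9% of all genes), and of those 17 were at or above 200 in naked DNA and 18 had the 2-fold difference between replicates.

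Many yeast RP genes are duplicated, and 11 pairs of copies had both members in the set. The copies encode identical or nearly identical proteins, but their naked DNA signals upstream were at least 2-fold apart in 6 pairs. The gap was widest for *RPL8A* (449) and *RPL8B* (6.48), followed by *RPS14A* (374) and *RPS14B* (5.8) and by *RPS27B* (525) and *RPS27A* (35.7). *RPS19B* (376) and *RPS19A* (48.0), *RPL41B* (404) and *RPL41A* (91.4), and *RPL35A* (447) and *RPL35B* (137) were also apart. In each of these 6 pairs 1 copy was in the high group and the other was not. The 5 pairs within 2-fold of each other included *RPL17A* and *RPL17B*, *RPL1A* and *RPL1B*, *RPL22A* and *RPL22B*, and *RPL34A* and *RPL34B*.

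Downstream of the TSS the libraries had another order. From the TSS to 150 bp downstream, where +1 lies, the median signal was 26.1 in naked DNA, 75.0 in replicate 1 and 89.4 in replicate 2, against 44.2, 94.1 and 115 over all genes. Both replicates were at least 2-fold above naked DNA in 20 of 57 genes (34.4% of all genes) and at least 2-fold below it in *RPL40A*, *RPP2A* and *RPS19B* (4.72%), whose resistant stretches spanned the TSS. The count of 20 was near the share of all genes and was 12 with scaling to the genome median. Replicate 1 had the lower median here but was above replicate 2 in 28 of the 57 genes, so gene by gene the replicates had no common order.

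Among the highest signals over +1 were those of *RPL12A*, *RPL14B*, *RPP1B* and *RPL4A*. *RPL14B* had 91.4 in naked DNA, 150 in replicate 1 and 151 in replicate 2, and *RPL4A* had 268, 182 and 105. Part of the body of each held no read in any library, as given below. *RPP1B*, of the stalk, had 23.7, 79.0 (62.2 to 99.1) and 213 (183 to 247), and *RPL12A* had 160, 97.8 and 212. The replicates were thus less than 2-fold apart in *RPL14B* and *RPL4A* and more than 2-fold apart in *RPP1B* and *RPL12A*. At the low end, *RPL8A* had 6.35, 7.48 and 5.75, and *RPS27B* had 4.76, 30.1 and 17.9. *RPL33A* (4.22, 44.4 and 18.3) and *RPL41B* (8.06, 41.0 and 22.1) were also low in all 3 libraries.

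The replicates were called at least 2-fold apart over +1 in 8 genes with the pseudocount of 10, and in 4 more with a pseudocount of 1 (*RPL33A*, *RPL34B*, *RPS17A* and *RPS19B*). Replicate 1 was higher in 5 of them (11.9% of all genes), *RPL17A* (126 and 48.1), *RPL40A* (116 and 2.33), *RPP2A* (44.6 and 4.25), *RPS20* (61.1 and 23.2) and *RPS21B* (96.8 and 8.30). Replicate 2 was higher in 3 (16.3%), *RPL12A*, *RPP1B* and *RPL1A* (17.6 and 116). Both shares were near or under those of all genes. Of the body of *RPL1A*, which holds this window, 50.2% was without a read in any library, so its +1 values are uncertain. In *RPL40A* and *RPP2A* naked DNA was high over the same window, at 562 and 158.

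A +1 nucleosome was called after the naked DNA correction in both replicates of 48 genes (84.9% of all genes) and in neither replicate of *RPL8A* and *RPL40A* (3.65%). It was found in 53 genes in replicate 1 and in 50 in replicate 2, against 1853 and 1720 of all 1971 genes. The positions lay within 20 bp of each other in 39 genes (73.5%), and over 20 bp apart in 9 of the 48 (13.4% of genes with +1 in both). The median position was 60 bp downstream of the TSS in replicate 1 and 71.5 bp in replicate 2, against 54 and 57 bp over all genes. In 25 genes +1 lay farther downstream in replicate 2, in 12 farther in replicate 1, and in 11 at the same place, on a grid of 10 bp. The median of all genes also lay farther downstream in replicate 2, so this direction is not particular to the RP genes.

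Single genes departed from this position. In *RPL2A*, whose resistant stretch ends 51 bp before the TSS, +1 was at 0 and 10 bp, and in *RPL16A* at 22 and 2 bp. In *RPS19B* it was at 183 and 173 bp, past the end of the stretch that spans its TSS. The calls use the signal after subtraction, which is 0 wherever naked DNA exceeds chromatin, so they could hardly fall inside that stretch. The replicates disagreed most in *RPL25*, at 49 and 199 bp, followed by *RPL41B*, at 130 and 80 bp, and *RPS2*, at 30 and 80 bp. *RPS18B* (70 and 80 bp), *RPL39* (54 and 64 bp) and *RPP1* (90 and 90 bp) were each within 10 bp.

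Nucleosomes +1 and +2 were called in both replicates of 35 genes (61.6% of all genes), and the median distance between them was 160 bp in either replicate, against 170 bp over all genes. The distance of 160 bp moved within 160 to 175 bp with the processing, on a 10 bp grid. The median height of +1 was 82.2 in replicate 1 and 117 in replicate 2 (109 and 170.0 over all genes). Its fuzziness, the SD of position of the corrected signal within 100 bp of the peak, had a median of 28.8 bp and 28.1 bp, against 25.4 and 25.6 bp. In each replicate the median +1 of the RP genes was thus lower and slightly more spread than that of all genes. How the height and fuzziness of +1 move with the processing is not given.

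**Figure D5:**
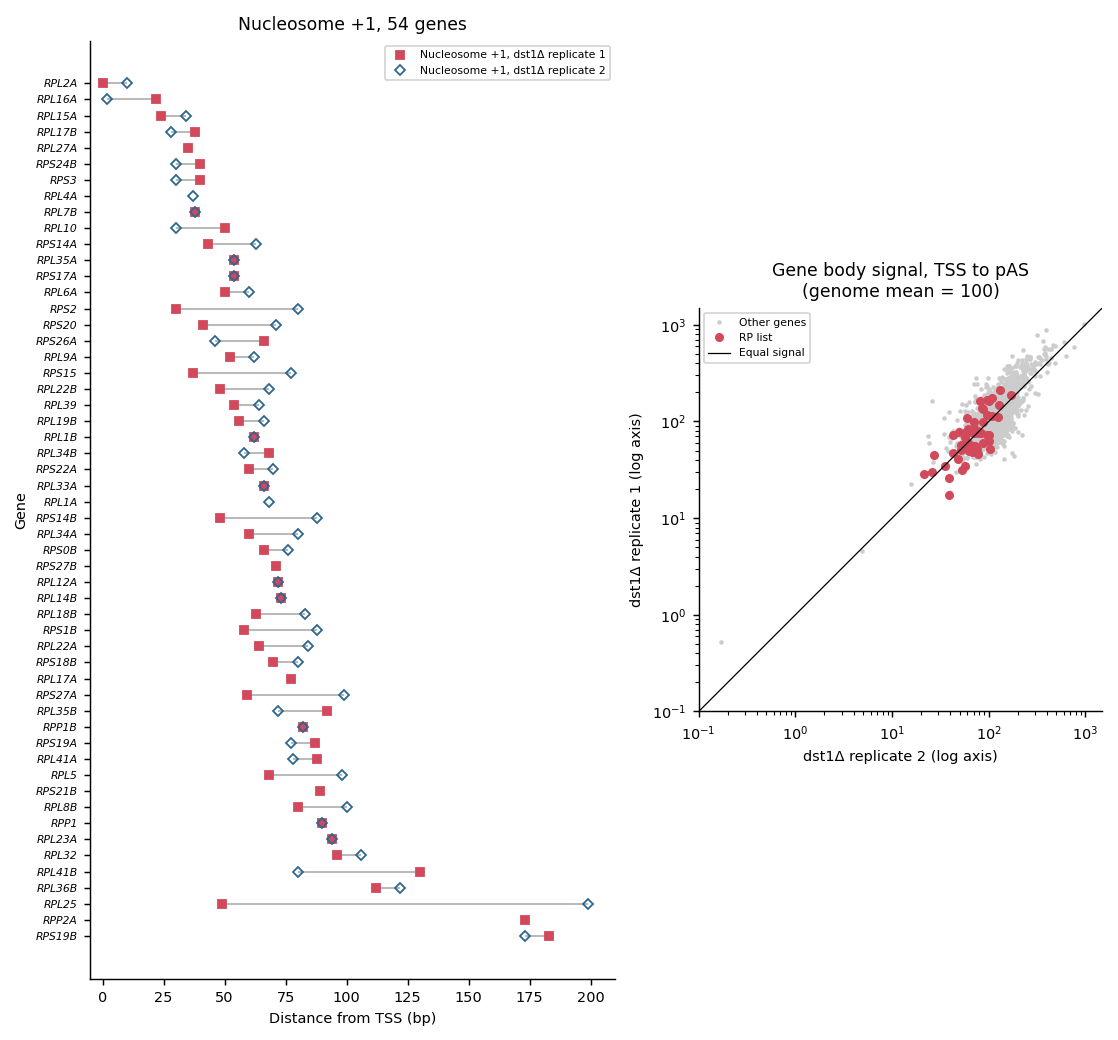
Left, position of nucleosome +1 (bp downstream of the TSS) in *dst1∆* replicates 1 and 2 for 54 RP genes with a call in either replicate. Right, gene body signal of replicate 2 (horizontal) and replicate 1 (vertical, log axes, genome mean 100) for RP genes and other genes. Most positions lie within 20 bp between replicates, with *RPL25* farthest apart at 49 and 199 bp, and the RP genes lie in the lower part of the body signal, with medians of 71.9 and 70.5.

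Over the gene body the RP genes had lower medians than all genes in every library. Before correction the median from TSS to pAS was 71.9 in replicate 1 and 70.5 in replicate 2, against 97.2 and 105 over all genes, and naked DNA was lower as well, at 81.2 against 92.9. Both replicates were under 100 in 41 of 57 genes (33.5% of all genes), and only 15 genes in replicate 1 and 6 in replicate 2 were above the median of all genes. With scaling to the genome median, which raises the signals of all genes as well, the count of 41 was 14. The share of all genes under that scaling is not given, so 14 cannot be set against it. After subtraction of naked DNA the medians were 22.5 and 30.2, against 37.2 and 51.6. With the pseudocount of 10 no RP gene was called 2-fold different between replicates over its body, where 1.98% of all genes had replicate 1 and 0.964% replicate 2 higher. With a pseudocount of 1, *RPP2A* (164 and 81.4) and *RPL1A* (17.4 and 38.4) were called.

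The highest bodies were those of *RPP1B* (137 in naked DNA, 190 in replicate 1 and 168 in replicate 2), *RPP1* (270, 213 and 131) and *RPL5* (185, 174 and 109), whose protein carries the 5S rRNA. The lowest were *RPL41B* (7.67, 28.7 and 21.2), *RPL35A* (20.1, 29.7 and 25.6) and *RPL1A* (20.1, 17.4 and 38.4). Low bodies were low in naked DNA too. Across the 57 genes rho between naked DNA and the body signal was 0.81 in replicate 1 and 0.60 in replicate 2. Across all genes it was much the same, at 0.86 and 0.58. Both replicates were called at least 2-fold above naked DNA in *RPL41A* and *RPS1B* (5.99% of all genes), and with a pseudocount of 1 also in *RPL41B*. In *RPL8A*, of the large subunit, the body had 225 in naked DNA and 69.1 and 57.3 in the replicates, the only RP gene called at least 2-fold lower in both (0.863%), joined with a pseudocount of 1 by *RPL40A* (118, 57.4 and 51.7). No nucleosome was called after subtraction in the body of *RPL8A* in either replicate, against a median of 4 per gene in each replicate over the RP genes. The higher naked DNA of that body is taken off before the calls.

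Part of the low bodies held no read in any library. Over 10% of the body was without a read in 8 genes (0.964% of all genes), all of the large subunit. The share was 50.2% in *RPL1A*, 46.1% in *RPL4A*, 45.5% in *RPL1B*, 23.3% in *RPL35B*, 20.5% in *RPL35A*, 17.8% in *RPL7B*, 12.1% in *RPL2A* and 10.1% in *RPL14B*. The authors kept only reads that map to a single place, so any stretch that is identical between copies would hold none. No sequence was examined, and whether this applies to the 8 genes was not tested. Their body values are uncertain, and so are their values over +1, which lies inside the body. The *RPL1* and *RPL35* copies were both in the set. The fuzziness of nucleosomes in the bodies had a median over genes of 31.5 bp in replicate 1 and 31.1 bp in replicate 2, against 29.7 and 30.2 bp over all genes.

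The upstream values were also set beside those of 2 groups that share a property with the RP genes. Of 129 highly transcribed genes that are not RP genes, 21 were at or above 200 in naked DNA and 26 had replicate 1 at least 2-fold above replicate 2, and their upstream medians were 40.5, 45.2 and 31.9. Of 359 Rap1-bound genes that are not RP genes, 80 and 99 met these criteria, with medians of 60.6, 53.6 and 40.2. The RP genes had 31 and 38 of 57, and medians of 321, 82.2 and 9.26. Over the gene body both replicates were under 100 in 47 of the 129 and 97 of the 359, against 41 of 57, with medians in the first group of 99.0 and 97.0 and in the second of 116 and 107. These differences were not tested.

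Few other genes of the pathway had a site entry. Of 12 listed regulators of RP genes, 3 had 1 site entry. *RAP1* had 27.3 in naked DNA, 12.9 in replicate 1 and 6.0 in replicate 2, and *RRP7*, a ribosome assembly factor, had 7.10, 19.6 and 57.8. *ABF1*, which encodes a general regulatory factor, was the only regulator at or above 200 in naked DNA, with 309, 28.1 and 31.9, and its replicates were alike. Of 15 listed translation factors, 5 had 1 site entry, and none was at or above 200 in naked DNA. They were *TEF4* (102, 55.0 and 121) and *EFB1* (15.7, 15.3 and 0.55) of the elongation machinery, and *TIF2* (53.2, 88.7 and 192), *SUI1* (84.9, 67.6 and 139) and *CDC33* (76.7, 56.4 and 70.7) of initiation. *EFB1* was the only one of these 8 genes with replicate 1 at least 2-fold above replicate 2.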

How the data were processed

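Per the paper's methods, the authors aligned single reads to sacCer2 with GEM (version not given in the sources used here), with at most 3 mismatches per read, and discarded reads with more than 1 place. The lines they deposited hold the start, end and strand of each read, and a score of 1000 that the authors set in every line and that was not used. Repeated reads are included. Their nucleosome calls with DANPOS v2.1.2 were not used.

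At most 11, 9 and 9 reads were counted per strand position, the Poisson limit for a tail of 1e-10, which kept 65.2%, 70.5% and 72.5% of the reads in naked DNA, replicate 1 and replicate 2. Each read start was moved by 73 bp to the fragment centre, and 81 bp around the centre were counted. Sequenced bases covered the genome 49.7-fold, 32.2-fold and 34.6-fold. For the correction naked DNA was subtracted, with a lower limit of 0. Nucleosomes were peaks over 20 high and over 100 bp apart in the corrected signal, smoothed with an SD of 20 bp and read on a 10 bp grid. Nucleosome +1 was the highest peak from the TSS to 200 bp downstream, and +2 the highest peak 100 to 250 bp past it. Log2 ratios and 2-fold calls used a pseudocount of 10, and the values with a pseudocount of 1 were added after seeing the data.

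The RP genes, the gene lists and the thresholds were chosen with earlier results of these data known. The named genes followed a rule on extreme values in each window, which gave 46 of the 57 genes, and other genes were named after their values were seen. The site list and the other lists may be held in part, so no overlap test was run. Symbols were matched for 57 of 57 genes in a RefSeq table, whose coordinates were not used. The planned motif search was not run and no sequence is shown, because no genome was used here. A gene of the set that counts towards the totals is not reported here by itself and is not drawn. The steps were tested on simulated data. The software was pandas 2.3.3, scipy 1.17.1 and numpy 2.4.6 for the values, matplotlib 3.10.9 for the plots, and Python 3.11.15.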

Additional observations from a re-analysis of the deposited data

How the results depend on the processing

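No paired analysis was possible because naked DNA has 1 library and no test was run. Of the counts upstream, 31 genes at or above 200 in naked DNA ranged from 17 to 35 over the alternatives, and 38 genes with replicate 1 at least 2-fold above replicate 2 from 18 to 51, and the lowest of each came from the 24 genes without a listed neighbour in the 500 bp upstream (17 and 18, with 5 at most 50 in naked DNA and 11 under naked DNA in both replicates). The +1 calls in both replicates ranged from 39 to 53, the +1 calls within 20 bp from 33 to 41, and the stretches, whose alternatives were chosen after seeing the data, from 41 to 55. The median +1 position, 65.75 bp as the mean of 60 and 71.5 bp in the replicates, ranged from 60 to 73 bp.

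Scaling to a genome median of 100 gave 8 genes at most 50 in naked DNA in place of 22, 36 under naked DNA in both replicates in place of 22, 12 above naked DNA over +1 in place of 20, 14 bodies under 100 in place of 41, a body signal of 119 in place of 71.2 (SD 0.94, n = 2), a distance from +1 to +2 of 165 bp and a fuzziness of 27.3 bp in place of 31.3 (SD 0.31, n = 2). Median scaling raised the signals of all genes too, and 35.9% of them were at or above 200 upstream in naked DNA, in place of 16.9%. For the other counts no share of all genes under this scaling is given. With 1 read counted per strand position, the values were 12 genes at most 50, 11 above naked DNA over +1, 170 bp, a body signal of 86.0 and 30.6 bp. Without the cap on repeated reads the body signal was 52.3 before and 20.5 after correction, in place of 26.4 (SD 5.44, n = 2). The cross-correlation fragment length gave a distance of 165 bp, and counting the full nucleosome length around each centre gave 175 bp and a fuzziness of 43.4 bp. Without the correction the fuzziness was 44.4 bp, with naked DNA at a weight of 0.5 it was 36.5 bp, and with a peak height of 50 it was 29.3 bp. The corrected body signal was 38.9 at that weight and 182 with a ratio in place of the difference.

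Leaving out 1 replicate gave 22 to 48 genes under naked DNA upstream (48 without replicate 1), 27 to 31 above it over +1, 44 to 47 bodies under 100, a +1 position of 60 to 71.5 bp, body signals of 70.5 to 71.9 before and 22.5 to 30.2 after correction, a fuzziness of 31.1 to 31.5 bp and a distance of 160 bp. Causes were not tested. Over 138 values of named genes, 134 stayed within their counting interval with the cross-correlation length, 118 with libraries thinned to the shallowest, 117 with the full nucleosome length, 74 without the cap, 51 with 1 read per position and 37 with median scaling. Depth limits the lowest genes: 3 fragments upstream amount to a signal of 1.66, 2.37 and 2.74 in naked DNA, replicate 1 and replicate 2.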
